A study of Ictidomys tridecemlineatus with 10 samples.

Results

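Genes named for channels of calcium entry or internal store release were examined in a brain region of the thirteen-lined ground squirrel, the subfornical organ. They were taken by name from the deposited table: every symbol that begins with Cacna, Cacnb or Cacng, or with Trpc or Trpm and a number, together with Ryr1 to Ryr3, Itpr1 to Itpr3, Stim1, Stim2, Orai1 to Orai3 and Pkd2. Of 25964 genes listed, 54 had such a name, and the 45 with a mean of at least 0.5 normalised CPM (reads scaled by the size of the library) over the 10 libraries are the members described. The name rule also took in Trpc4ap, which encodes a protein that associates with a channel and is no channel itself, so 44 members are named as channel subunits or calcium sensors. Membership follows the name, and not every member carries calcium itself. Just inside the limit were Cacna1a, with a mean of 0.502 CPM, and Trpm8, with 0.6 CPM, and just outside it were Cacna1s, with 0.486 CPM, and Trpc6, with 0.456 CPM.

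RNA was sequenced from 5 interbout arousal (IBA) animals and 5 Active animals. IBA is a state of hibernating animals, a short rewarming that interrupts torpor, and Active animals were not hibernating. The sources used here give no strain, sex or age, and name no treatment for either state. The tissue was cut out of slices with needles, so each library is a bulk mixture of neurons, glia, vessels and whatever adjoining tissue was taken. The subfornical organ is a midline structure without a blood-brain barrier with neurons that respond to salt and angiotensin in the blood, and the comparison asks which transcripts differed between the states. Transcripts known for its neurons were present in every library: Etv1 was at 116.0 to 129.9 CPM in IBA and 87.8 to 158 CPM in Active, and the angiotensin receptor gene Agtr1 at 34.0 to 69.5 CPM in IBA and 13.6 to 60.7 CPM in Active.

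Calcium enters neurons through voltage-gated channels built on a pore-forming alpha1 subunit, which in the L-type and Cav2 channels is joined by alpha2delta and beta subunits that set how many channels reach the membrane and how they open. TRPC and TRPM channels are cation channels opened by receptor signalling, lipids, temperature or internal calcium. Inositol trisphosphate receptors and ryanodine receptors release calcium from the endoplasmic reticulum, and when that store empties the sensor STIM opens ORAI channels in the cell membrane, which is called store-operated calcium entry. These routes shape firing, transmitter release and gene expression in neurons, and calcium signals in glia.

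Differences are IBA minus Active and were taken after adding 0.5 to each CPM and then log2, a scale on which genes with low values differ by less than their true fold. CPM is not corrected for transcript length, so values are compared between libraries and not between genes. Each value was a whole number of reads times a library constant, and reads numbered 24195342 to 35382203 per IBA library and 20993093 to 30713168 per Active library. Of these, 3 reads, what a count of 0 leaves possible, were worth 0.0882 to 0.132 CPM, counting error only. Choroid plexus markers, 10 of 12 with a mean of at least 0.5 CPM, summed to 475 to 3034 CPM in IBA and to 548 to 13431 CPM in Active, with the highest sums in Active replicate 4 and IBA replicate 3. Markers of microglia and macrophages, 12 of 14 tested, summed to 299.9 to 346 CPM in IBA and to 226 to 294 CPM in Active. Of the 12, only 6 had a log2 difference above 0, with a median of 0.04. In limma 3 of them were called, beside 0.372% of all genes, and their part in the values below was not tested. Neuron markers, 11 of 11 tested with 0 called, summed to 3266 to 4827 CPM in IBA and to 2891 to 4270 CPM in Active. Of these 11, 9 had a log2 difference above 0, with a median of 0.25. Genes with few reads also differed between libraries: the 3416 genes outside the module with a mean of 0.1 to under 0.5 CPM summed to 563 to 741 CPM in IBA and to 557 to 1512 CPM in Active, with 1512 CPM in Active replicate 3 and 1392 CPM in Active replicate 4, and 76.1% of them had the lower mean in IBA. Among the 3784 genes of 2 to under 10 CPM that share was 52.6%.

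No member passed the test between the states in limma or edgeR, and 3 did in DESeq2, or 6.67% beside 9.46% of all genes. They were Trpm1, Orai3 and Stim1, all lower in IBA, where the share of all genes is 5.67%. In limma, with Benjamini-Hochberg adjustment over the 16672 genes that reached 0.5 CPM on average, 0 of 45 members had an adjusted p under 0.05, beside 62 of all genes tested (0.372%), 33 higher and 29 lower in IBA. Of the members, 9 had an unadjusted p under 0.05, or 20%, beside 23.5% of all genes tested. Of these 9, 4 were higher in IBA (Trpc4, Trpc7, Cacnb4 and Pkd2), where the share of all genes is 12.2%, and 5 were lower (Trpm1, Orai3, Stim1, Cacnb1 and Trpm5), where it is 11.4%. The members' shares lay near these backgrounds. At an adjusted p under 0.1 there were 2 members, Trpm1 and Orai3, or 4.44%, beside 7.28% of all genes. The IBA means of Trpm1, Cacna1a, Trpm6 and Trpm8 were under the limit of 0.5 CPM, so these are members only through Active. A member of that kind has the lower mean in IBA by the rule itself. In bulk tissue, fewer cells of a type and less RNA per cell cannot be told apart.

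The members as a group showed no common direction. Their median log2 difference was -0.03, beside 0.02 for all genes tested, and 20 of 45 were above 0 (44.4%, against 52.9% of all genes). The median size of the difference, whatever its sign, was 0.20 for members and 0.21 for all genes tested. On the log2(CPM + 0.5) scale, the 95% interval of 37 members lay within 2-fold in both directions (82.2%, against 85.2% of all genes). That of 17 members lay within 1.5-fold on this scale (37.8%, against 49.1%). The other 8 members, whose interval reached 2-fold on this scale, were Cacna1a, Cacnb1, Cacnb2, Trpc4, Trpm1, Trpm3, Trpm6 and Trpm8. For genes with low values, an interval within these limits need not exclude a 2-fold change in CPM itself. Examples are Trpm5, with an interval of -0.99 to -0.06, and Trpm2, with one of -0.996 to 0.02. The spread between libraries of a state was a median SD of 0.32 on the log2 scale for members and 0.26 for all genes tested.

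With whole reads in edgeR (quasi-likelihood) 0 members were called again, beside 31 of all genes (0.186%), 0.09% higher and 0.096% lower in IBA. On the same reads, the 3 members DESeq2 called (6.67%) had adjusted p = 0.00133 for Trpm1, 0.0169 for Orai3 and 0.0143 for Stim1. DESeq2 also called 9.46% of all genes, 3.78% higher and 5.67% lower in IBA. The count of all genes called by limma depended on single libraries. Without IBA replicate 1, 2, 3, 4 or 5 it was 7, 4, 27, 15 and 238, without Active replicate 1, 2, 3, 4 or 5 it was 10, 73, 37, 30 and 5, and without both Active replicates 4 and 5 it was 0. With equal totals in all libraries, 28 genes were called higher and 50 lower in IBA. The count of members called by limma was 0 in each of these settings.

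**Figure D1:**
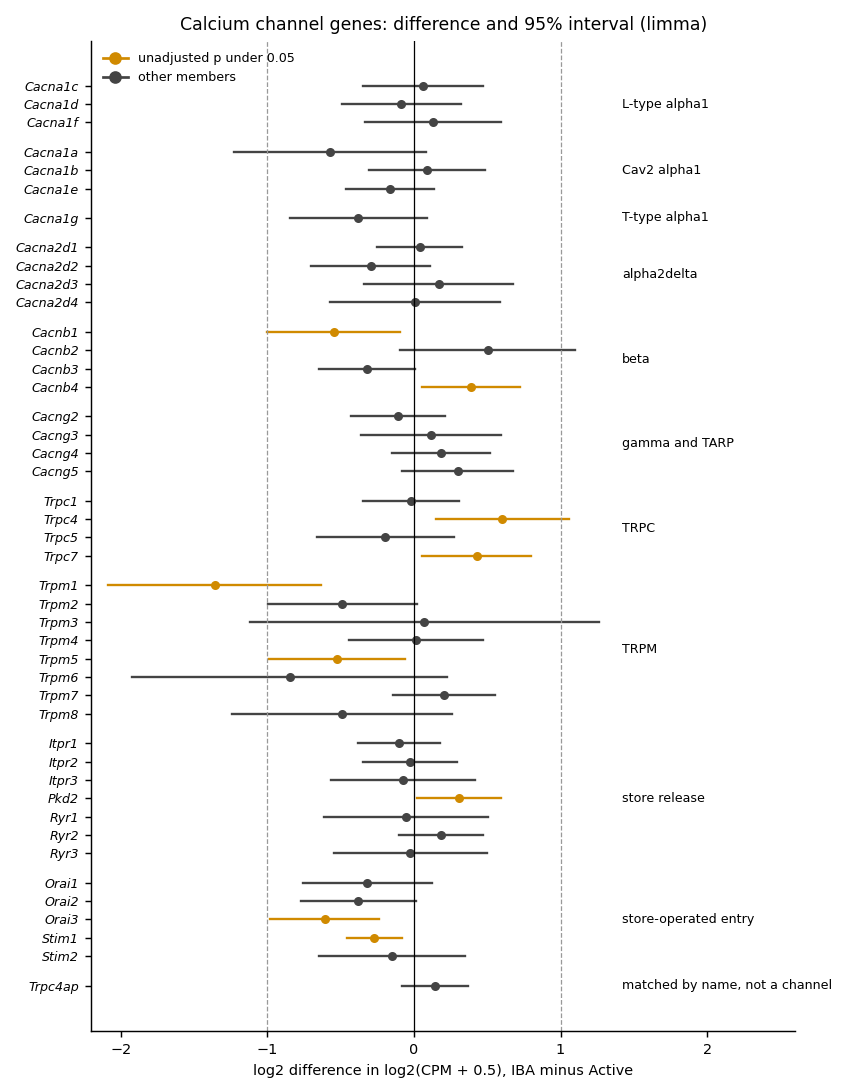
Log2 difference of 44 of the 45 members, IBA minus Active on the log2(CPM + 0.5) scale (x axis), with its 95% interval from limma, grouped by role (y axis). Dashed lines mark 2-fold changes on this scale, and the 9 members in orange have an unadjusted p under 0.05. All 5 members of store-operated entry lie left of 0.

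The store-operated entry genes were all lower in mean in IBA, while 52.9% of all genes tested had a log2 difference above 0. Of the 5, Stim1 and Orai3 had values that did not overlap between the states. They were the only such members, 2 of 45 or 4.44%, beside 6.2% of all genes tested. Stim1 encodes the main calcium sensor of the endoplasmic reticulum, which touches and opens ORAI channels when the store is empty. It had 95.1, 96.9, 94.5, 105 and 103 CPM in IBA replicates 1 to 5, against 117, 129.7, 107, 129 and 115 CPM in Active replicates 1 to 5. Every IBA library lay below every Active library, though the highest IBA value, 105 CPM, and the lowest Active value, 107 CPM, lay close. The means were 98.9 ± 4.76 CPM in IBA and 119.7 ± 9.75 CPM in Active (SD, n = 5 each), and the log2 difference was -0.27, with an adjusted p of 0.104 in limma and a 95% interval of -0.46 to -0.08. That is a ratio of 0.828 on this scale, and the interval excludes a 1.5-fold change in either direction.

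Orai3 encodes one of the pore subunits that STIM opens. It had 11.96, 11.3, 17.3, 15.996 and 20.05 CPM in IBA replicates 1 to 5, against 20.3, 27.2, 21.9, 20.2 and 27.0 CPM in Active replicates 1 to 5. Here too every IBA library lay below every Active library, though the highest IBA value and the lowest Active value differed by little, 20.05 against 20.18 CPM. The means were 15.3 ± 3.69 CPM in IBA and 23.3 ± 3.52 CPM in Active (SD, n = 5 each), and the log2 difference was -0.61, with an adjusted p of 0.0836 in limma and a 95% interval of -0.98 to -0.24. Over all genes tested, 2.8% had no overlap with IBA lower, 3.41% none with IBA higher and 6.2% in all, against 2 of 45 members, or 4.44%, both with IBA lower. Neither gene passed the adjusted threshold in limma or edgeR.

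The other 3 genes of this route overlapped between the states. Orai2, another pore subunit, was at 8.76 ± 1.07 CPM in IBA and 11.8 ± 3.32 CPM in Active (SD, n = 5 each), and its log2 difference was -0.38, with an adjusted p of 0.224 in limma and a 95% interval of -0.77 to 0.01. Orai1, the pore subunit of the classical calcium release-activated current, ranged over 4.02 to 5.23 CPM in IBA and 4.02 to 9.32 CPM in Active, a difference of -0.32 (95% interval -0.76 to 0.13). Stim2, a sensor that responds to smaller losses of store calcium, ranged over 8.85 to 16.01 CPM in IBA and 7.42 to 19.6 CPM in Active, a difference of -0.15 (95% interval -0.65 to 0.35). Its highest values, 19.6 and 16.01 CPM, were in Active replicate 4 and IBA replicate 3, the libraries with the highest choroid plexus sums, and the part of those markers in the Stim2 values was not tested.

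Summed over the 5 genes, store-operated entry came to 131, 131, 141, 146 and 146 CPM in IBA replicates 1 to 5, against 167, 184, 148, 193 and 177 CPM in Active replicates 1 to 5, and Stim1 made up most of each sum. All 5 genes had the lower value in IBA under deposited, equal-total and median-of-ratios scaling and in edgeR and DESeq2. The make-up of the families overlapped between the states: Orai3 held 44.2 to 59.0% in IBA and 45.8 to 64.0% in Active of the CPM of the Orai genes. Stim1 held 85.5 to 91.5% in IBA and 86.8 to 93.5% in Active of that of the Stim genes. These sums and shares were chosen after the values were seen and carry no test.

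**Figure D2:**
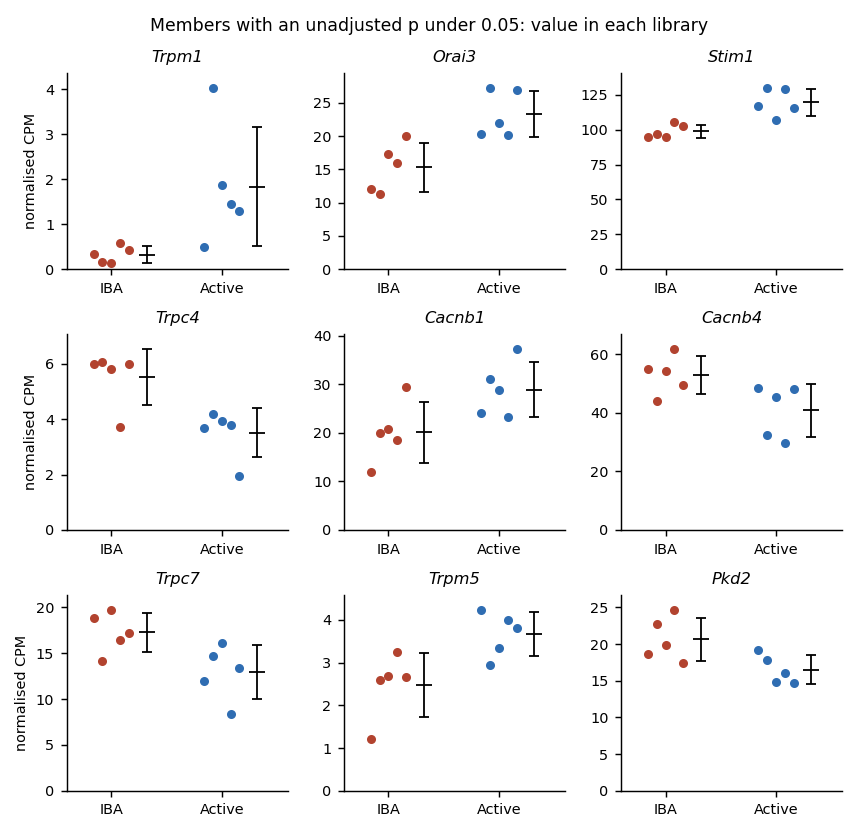
Normalised CPM (y axis) of the 9 members with an unadjusted p under 0.05 in each IBA and Active library (points), with the mean and SD of 5 libraries beside them (bar and whiskers). Stim1 and Orai3 are the panels in which the states do not overlap.

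The pore-forming genes of voltage-gated channels gave no unadjusted p under 0.05 in limma without covariates among the 7 that were members. L-type channels carry long-lasting currents that couple firing to gene expression. Of their genes, Cacna1f, best known as the L-type channel of retinal photoreceptors, had the highest mean CPM and had 14.3, 15.5, 13.0, 28.9 and 20.9 CPM in IBA replicates 1 to 5, against 19.6, 18.3, 17.9, 13.5 and 12.7 CPM in Active replicates 1 to 5. The states overlapped, and IBA replicate 4 was the highest of all 10, followed by IBA replicate 5. Oligodendrocyte markers also summed highest in IBA replicates 4 and 5, at 3398.5 and 2250.8 CPM. The log2 difference of Cacna1f was 0.13, with an adjusted p of 0.756 in limma and a 95% interval of -0.34 to 0.59. It turned to -0.05 without IBA replicate 4, and was 0.07 with oligodendrocyte markers as a covariate. The cause was not tested. Cacna1c and Cacna1d, the L-type channels of neurons, heart and endocrine cells, overlapped as well. Cacna1c ranged over 4.59 to 7.80 CPM in IBA and 4.22 to 7.62 CPM in Active, a difference of 0.06 (95% interval -0.35 to 0.47). Cacna1d ranged over 3.15 to 6.65 CPM in IBA and 4.54 to 5.97 CPM in Active, a difference of -0.09 (95% interval -0.49 to 0.32).

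The Cav2 channels trigger transmitter release at nerve terminals or carry calcium in dendrites. Cacna1e, the R-type channel, had 16.8, 18.3, 21.1, 14.3 and 15.4 CPM in IBA replicates 1 to 5, against 19.95, 18.5, 23.3, 18.6 and 15.9 CPM in Active replicates 1 to 5. The states overlapped, and the log2 difference was -0.16, with an adjusted p of 0.507 in limma and a 95% interval of -0.46 to 0.14. Cacna1b, the N-type channel of terminals, was at 5.19 ± 0.963 CPM in IBA and 4.86 ± 1.05 CPM in Active (SD, n = 5 each), a difference of 0.09 (95% interval -0.31 to 0.48). Cacna1a, the P/Q-type channel, lay just inside the limit at 0.0946 to 0.395 CPM in IBA and 0.119 to 1.67 CPM in Active, which is 3 to 11 reads per IBA library and 3 to 38 per Active library. Its highest values were in Active replicates 4, 5 and 3, which also held the highest sums of other thinly read genes, and the part of those libraries in its difference of -0.57 (95% interval -1.23 to 0.08) was not tested.

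Among T-type channels, which open near rest and drive bursts, Cacna1g was the one member. It had 11.9, 14.8, 8.01, 12.5 and 11.3 CPM in IBA replicates 1 to 5, against 12.1, 17.5, 16.2, 10.1 and 22.4 CPM in Active replicates 1 to 5. Active replicates 5, 2 and 3 lay above all IBA values, and the other 2 Active libraries lay inside the IBA range. The log2 difference was -0.38, with an adjusted p of 0.306 in limma and a 95% interval of -0.85 to 0.09. Without Active replicate 5 it was -0.24, and without Active replicate 4 it was -0.52. With choroid plexus markers as a covariate in limma it was -0.44 (95% interval -0.82 to -0.06, unadjusted p = 0.0259, adjusted p = 0.154). With neuron markers it was -0.43 (adjusted p = 0.366 in limma), and with oligodendrocyte markers -0.35 (adjusted p = 0.350 in limma). The other T-type genes were below the limit of 0.5 CPM.

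The beta subunit genes had differences on both sides of 0. Beta subunits sit inside the cell and bring the alpha1 pore to the membrane. Cacnb4, the form abundant in brain, had 54.9, 44.0, 54.3, 61.8 and 49.7 CPM in IBA replicates 1 to 5, against 48.4, 32.4, 45.5, 29.9 and 48.2 CPM in Active replicates 1 to 5. In IBA, 4 libraries lay above all Active libraries and IBA replicate 2 lay inside the Active range, and the log2 difference was 0.39, with an adjusted p of 0.161 in limma and a 95% interval of 0.05 to 0.73. Cacnb1, known as the partner of the skeletal muscle L-type channel and also made in brain, had 11.9, 20.04, 20.7, 18.4 and 29.4 CPM in IBA replicates 1 to 5, against 24.1, 31.1, 28.9, 23.3 and 37.2 CPM in Active replicates 1 to 5. IBA replicate 5 alone reached into the Active range, and the difference was -0.55, with an adjusted p of 0.145 in limma and a 95% interval of -1.002 to -0.10.

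Cacnb3 was lower in mean in IBA, at 19.2 ± 3.29 CPM in IBA and 24.1 ± 4.21 CPM in Active (SD, n = 5 each), a difference of -0.32 (adjusted p = 0.225 in limma). Cacnb2 was higher in mean, at 19.1 ± 6.0 CPM in IBA and 13.7 ± 5.68 CPM in Active, a difference of 0.50 with a wide 95% interval -0.09 to 1.10. None of the 4 passed the adjusted test. The beta genes together came to 99.6 to 116 CPM in IBA and 95.1 to 126 CPM in Active. Of that sum Cacnb1 held 10.3 to 25.8% in IBA and 23.3 to 29.6% in Active, Cacnb4 43.6 to 55.0% in IBA and 29.9 to 46.9% in Active, and Cacnb3 13.6 to 19.98% in IBA and 19.5 to 25.4% in Active. A ratio within a library does not depend on its scaling, and the ratio of Cacnb4 to Cacnb1 was 1.69 to 4.62 in IBA and 1.044 to 2.01 in Active. These shares and this ratio were chosen after the values were seen and carry no test, and the states overlapped in each of them.

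**Figure D3:**
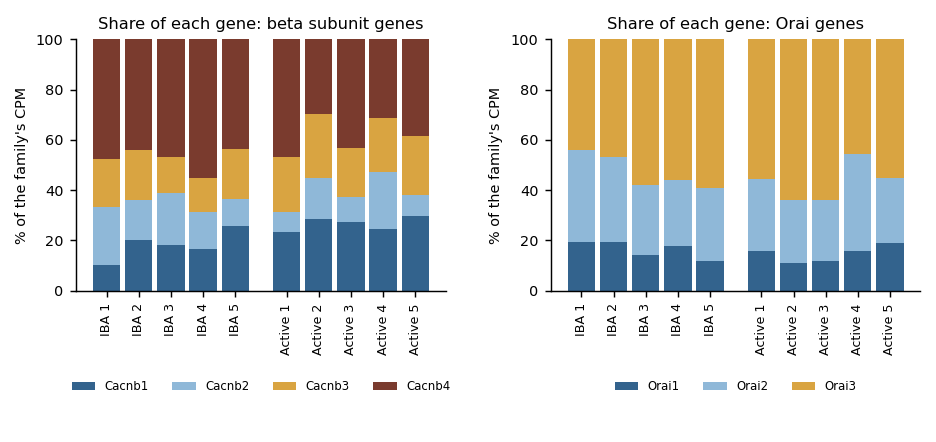
Share of the summed CPM of the 4 beta subunit genes (left) and of the 3 Orai genes (right) held by each gene (y axis, percent), in IBA and Active libraries (x axis). The Cacnb1 share was 10.3 to 25.8% in IBA and 23.3 to 29.6% in Active, while the Orai3 share overlapped over most of its range.

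The alpha2delta subunits, which lie outside the membrane and raise the number of channels at the surface, all had intervals that include 0, with a log2 difference above 0 for 3 of 4, or for 1 of 4 with equal totals. Cacna2d1, a target of gabapentin drugs, had 43.2, 42.8, 54.8, 38.9 and 35.5 CPM in IBA replicates 1 to 5, against 44.7, 42.3, 42.5, 46.4 and 32.8 CPM in Active replicates 1 to 5. The ranges overlapped widely, and the log2 difference was 0.04, with an adjusted p of 0.884 in limma and a 95% interval of -0.25 to 0.33, an interval that excludes a 1.5-fold change. Cacna2d2 was at 5.52 ± 1.23 CPM in IBA and 6.82 ± 1.10 CPM in Active (SD, n = 5 each) with a difference of -0.30 (95% interval -0.70 to 0.11). Cacna2d3 ranged over 2.12 to 3.03 CPM in IBA and 1.06 to 3.22 CPM in Active, a difference of 0.17 (95% interval -0.34 to 0.67). Cacna2d4 ranged over 0.412 to 0.958 CPM in IBA and 0.213 to 1.5 CPM in Active, a difference of 0.01 (95% interval -0.57 to 0.59).

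The gamma subunit family includes the TARPs, proteins that carry AMPA-type glutamate receptors to synapses. Cacng5, a TARP of the second class, had 12.9, 9.46, 11.6, 7.88 and 9.13 CPM in IBA replicates 1 to 5, against 8.43, 8.36, 6.38, 7.05 and 10.8 CPM in Active replicates 1 to 5. The difference was 0.30, with an adjusted p of 0.323 in limma and a 95% interval of -0.08 to 0.68, with overlap between the states. The other members, Cacng4, Cacng2 (stargazin) and Cacng3, are TARPs of the first class. Cacng4 was at 4.56 ± 0.568 CPM in IBA and 3.96 ± 0.585 CPM in Active (SD, n = 5 each), a difference of 0.18 (95% interval -0.15 to 0.52). Cacng3 was at 0.763 ± 0.300 CPM in IBA and 0.645 ± 0.181 CPM in Active (SD, n = 5 each), a difference of 0.11 (95% interval -0.36 to 0.59). Cacng2 differed by -0.11 (95% interval -0.43 to 0.21). Cacng2 varied little between libraries, from 2.71 to 3.31 CPM in IBA and from 2.78 to 3.80 CPM in Active.

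**Figure D4:**
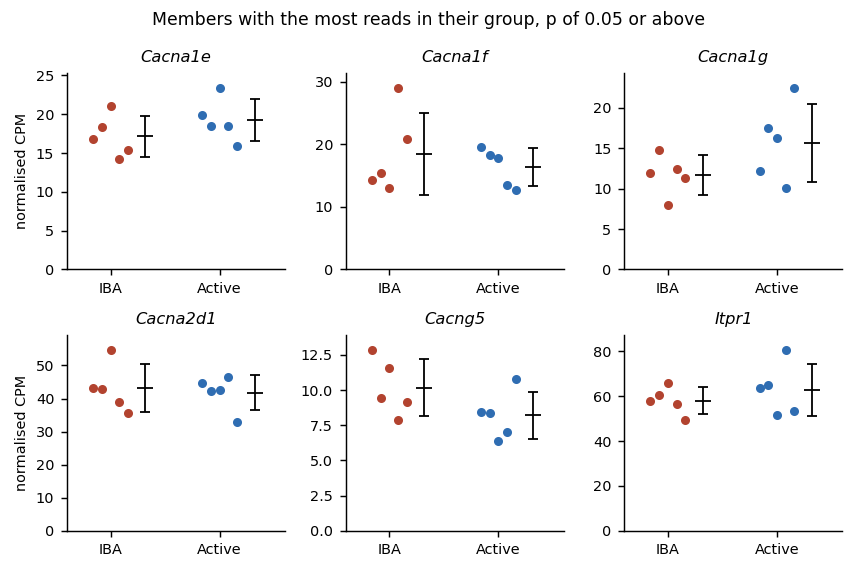
Normalised CPM (y axis) in each IBA and Active library (points) of 6 genes with the highest mean CPM of their role group and an unadjusted p of 0.05 or above, with the mean and SD of 5 libraries. The states overlap in every panel.

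Of the TRPC channels, which open downstream of receptors that activate phospholipase C, Trpc4 and Trpc7 were higher in mean in IBA without passing the adjusted test. Trpc4 had 6.0, 6.07, 5.83, 3.74 and 6.0 CPM in IBA replicates 1 to 5, against 3.70, 4.18, 3.94, 3.79 and 1.95 CPM in Active replicates 1 to 5. In IBA, 4 libraries lay above all Active libraries, IBA replicate 4 lay inside the Active range, and Active replicate 5 was the lowest of all. The log2 difference was 0.60, with an adjusted p of 0.120 in limma and a 95% interval of 0.15 to 1.06. It was 0.43 without Active replicate 5 and 0.73 without IBA replicate 4. With neuron, choroid plexus or oligodendrocyte markers as a covariate in limma it was 0.43, 0.61 and 0.59. Trpc7 had 18.8, 14.1, 19.7, 16.4 and 17.2 CPM in IBA replicates 1 to 5, against 11.9, 14.6, 16.1, 8.42 and 13.4 CPM in Active replicates 1 to 5. IBA replicate 2 alone lay within the Active range. The difference was 0.43, with an adjusted p of 0.162 in limma and a 95% interval of 0.06 to 0.80. Without Active replicate 4, which held the lowest Trpc7 value, the difference was 0.29. With neuron, choroid plexus or oligodendrocyte markers as a covariate in limma it was 0.35, 0.38 and 0.44.

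The intervals of Trpc5 and Trpc1 included 0. Trpc5, a close relative of Trpc4, was at 3.15 ± 0.954 CPM in IBA and 3.64 ± 0.911 CPM in Active (SD, n = 5 each), a difference of -0.20 (95% interval -0.66 to 0.27). The ratio of Trpc4 to Trpc5 was 1.40 to 2.37 in IBA and 0.417 to 1.33 in Active, without overlap, a ratio chosen after the values were seen and given no test. Trpc1, which assembles with other TRPC subunits, ranged over 1.94 to 2.88 CPM in IBA and 2.38 to 2.80 CPM in Active, and its interval (-0.35 to 0.31) excludes a 1.5-fold change. Trpc4ap, the associated protein, was at 47.3 ± 4.32 CPM in IBA and 42.8 ± 4.39 CPM in Active with a difference of 0.15 (95% interval -0.08 to 0.37).

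Trpm1, known from retinal ON bipolar cells and melanocytes, had the largest difference in size of the 45 members and the smallest p. Its IBA mean was under the limit of 0.5 CPM, so it is a member only through its Active values, which favours a lower mean in IBA. It had 0.323, 0.160, 0.126, 0.568 and 0.431 CPM in IBA replicates 1 to 5, against 0.498, 4.02, 1.86, 1.45 and 1.3 CPM in Active replicates 1 to 5. Active replicate 1 overlapped with the IBA libraries, the other Active libraries lay above all of them, and Active replicate 2 stood highest. These values rest on few reads: 11, 4, 4, 14 and 12 in IBA replicates 1 to 5, and 14, 52, 33 and 42 in Active replicates 1, 3, 4 and 5, with the most in Active replicate 2. The means were 0.322 ± 0.185 CPM in IBA and 1.83 ± 1.32 CPM in Active (SD, n = 5 each), and the log2 difference was -1.36, with an adjusted p of 0.0712 in limma and a 95% interval of -2.09 to -0.63. The value depended on how low counts were handled, at -0.99 with a pseudocount of 1, -2.04 with one of 0.1 and -2.52 in edgeR. Among the 1321 genes outside the module with a mean of 1 to under 2 CPM, 55.6% had the lower mean in IBA. Active replicate 2, where Trpm1 was highest, held the lowest Active sum of thinly read genes, 557 CPM, and without it the log2 difference was -1.08. The next highest Trpm1 values were in Active replicates 3, 4 and 5, which held the highest such sums, 1512, 1392 and 906 CPM. The part of those libraries in the Trpm1 difference was not tested.

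Trpm5, a channel opened by internal calcium and known from taste cells, was the other TRPM gene with an unadjusted p under 0.05. It had 1.21, 2.6, 2.68, 3.25 and 2.66 CPM in IBA replicates 1 to 5, against 4.23, 2.94, 3.33, 4.01 and 3.81 CPM in Active replicates 1 to 5. IBA replicate 4 alone lay above the lowest Active value and IBA replicate 1 was the lowest, and the log2 difference was -0.52, with an adjusted p of 0.169 in limma and a 95% interval of -0.99 to -0.06, or -0.33 without IBA replicate 1. Trpm4, the related calcium-activated channel, ranged over 18.3 to 26.3 CPM in IBA and 14.5 to 34.2 CPM in Active, a difference of 0.01 (95% interval -0.44 to 0.47). Trpm2, opened by ADP-ribose and heat, was at 4.03 ± 1.81 CPM in IBA and 5.55 ± 0.808 CPM in Active (SD, n = 5 each), a difference of -0.49 (95% interval -0.996 to 0.02). Trpm7, a channel fused to a kinase that carries magnesium and calcium, ranged over 47.9 to 71.3 CPM in IBA and 39.4 to 72.4 CPM in Active, with a difference of 0.20 (95% interval -0.14 to 0.55).

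Trpm6 and Trpm8 were thinly read, and their Active values were uneven. Trpm6, the magnesium channel of kidney and gut, had 0.118, 0.200, 0.0946, 0.284 and 1.19 CPM in IBA replicates 1 to 5, against 0.213, 0.239, 3.69, 2.34 and 0.526 CPM in Active replicates 1 to 5. The high values were in Active replicates 3 and 4, the libraries with the highest sums of thinly read genes, and in IBA replicate 5. The difference was -0.85 (95% interval -1.92 to 0.23). Trpm8, the cold and menthol receptor of sensory neurons, had its highest values, 1.43 and 1.41 CPM, in the same pair of Active libraries, and a difference of -0.49 (95% interval -1.24 to 0.26). The part of those libraries in both differences was not tested.

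Trpm3, a steroid- and heat-activated channel strongly made in choroid plexus, had 74.6, 120.1, 216, 123 and 91.8 CPM in IBA replicates 1 to 5, against 102, 66.3, 50.8, 602 and 81.9 CPM in Active replicates 1 to 5. Active replicate 4 stood far above every other library and IBA replicate 3 came next, and the same pair held the highest choroid plexus marker scores, 2.40 and 0.82. A score averages, over the 10 markers, how far each gene lay from its own average on the log2 scale. The lowest Trpm3 values, in Active replicates 3 and 2 and IBA replicate 1, went with scores of -0.98, -0.62 and -1.08. Ttr, a leading choroid plexus transcript that encodes transthyretin, ran from 275 to 2143 CPM in IBA and from 315 to 10024 CPM in Active, with the top value in Active replicate 4.

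The mean of Trpm3 was 125 CPM in IBA and 181 CPM in Active, while its log2 difference was 0.07 (95% interval -1.12 to 1.26, adjusted p = 0.949 in limma), so mean and log scale differ in sign. Without Active replicate 4 the difference was 0.68, and with the choroid plexus score as a covariate it was 0.31 (95% interval 0.06 to 0.56, adjusted p = 0.132 in limma). With the neuron marker score as a covariate it was 0.48 (adjusted p = 0.672 in limma), and with the oligodendrocyte score 0.016 (adjusted p = 0.990 in limma). It was -0.21, -0.11 and -0.04 without Active replicate 3, 2 or 5, and -0.15 without IBA replicate 3. Trpm3 had the largest spread within a state of all members, an SD of 1.08 on the log2 scale.

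**Figure D5:**
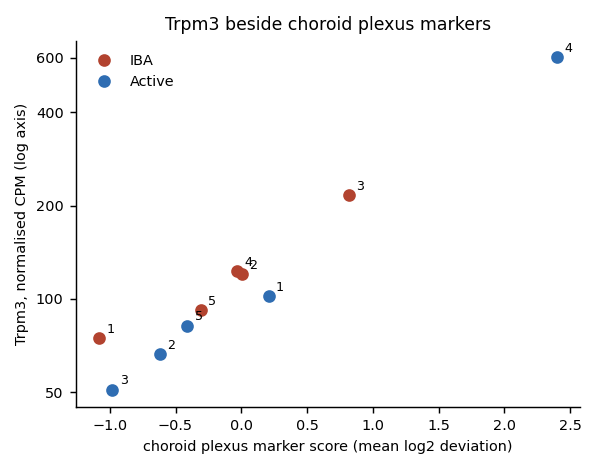
Normalised CPM of Trpm3 (y axis, log scale) against the choroid plexus marker score (x axis, mean log2 deviation of 10 markers) in each IBA and Active library, labelled by replicate number. Active replicate 4, with a score of 2.40 and 602 CPM, stands apart at the upper right, and IBA replicate 3, with 0.82 and 216 CPM, comes next.

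Of the 7 genes of store release, 2 had a log2 difference above 0 and 5 one below 0. Itpr1, the main inositol trisphosphate receptor of neurons, had 58.0, 60.6, 65.8, 56.7 and 49.3 CPM in IBA replicates 1 to 5, against 63.8, 65.1, 51.5, 80.8 and 53.4 CPM in Active replicates 1 to 5. The ranges overlapped, the highest value was in Active replicate 4, and the log2 difference was -0.10, with an adjusted p of 0.672 in limma and a 95% interval of -0.38 to 0.18. Itpr2, common in glia, ranged over 15.5 to 24.6 CPM in IBA and 17.8 to 23.7 CPM in Active, a difference of -0.03 (95% interval -0.35 to 0.29). Itpr3 ranged over 15.1 to 32.1 CPM in IBA and 18.1 to 36.0 CPM in Active, a difference of -0.08 (95% interval -0.57 to 0.41). The intervals of Itpr1, Itpr2 and Itpr3 all lay within a 1.5-fold change. Itpr1 held 54.9 to 61.1% in IBA and 47.2 to 68.2% in Active of the family's CPM.

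The ryanodine receptors release calcium in response to calcium itself. Ryr2, the form of heart and brain, was at 9.15 ± 0.860 CPM in IBA and 8.0 ± 0.901 CPM in Active (SD, n = 5 each), a difference of 0.19 (95% interval -0.10 to 0.47). Ryr3 ranged over 7.70 to 18.1 CPM in IBA and 8.57 to 18.5 CPM in Active, a difference of -0.02 (95% interval -0.54 to 0.50). Ryr1, the form of skeletal muscle, ranged over 2.77 to 6.61 CPM in IBA and 2.98 to 7.49 CPM in Active, a difference of -0.05 (95% interval -0.61 to 0.50). Of these, Ryr2 and Ryr3 had intervals within a 1.5-fold change.

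Pkd2, which encodes polycystin-2, a cation channel of the endoplasmic reticulum and of cilia, was the member of this group with an unadjusted p under 0.05. It had 18.6, 22.7, 19.8, 24.6 and 17.4 CPM in IBA replicates 1 to 5, against 19.2, 17.8, 14.9, 15.996 and 14.7 CPM in Active replicates 1 to 5. In IBA, 3 libraries lay above all Active libraries, and the other pair lay inside the Active range. The log2 difference was 0.31, with an adjusted p of 0.183 in limma and a 95% interval of 0.02 to 0.59, and it lay between 0.24 and 0.37 when single libraries were left out. Ependymal markers, from ciliated cells, summed to 325 to 573 CPM in IBA and 328 to 495 CPM in Active, 10 of 11 being tested with 0 called, and their part in the Pkd2 values was not tested.

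The 9 rows below the limit were given no test. Trpc5os, named as a transcript opposite Trpc5, had 0 reads in every library. Of the other 8, 7 had the lower mean in IBA. Cacna1s, the L-type channel of skeletal muscle, was at a mean of 0.237 CPM in IBA and 0.735 CPM in Active, and the T-type gene Cacna1i at 0.101 CPM in IBA and 0.495 CPM in Active. The gamma subunit genes were at 0.0722 CPM in IBA and 0.340 CPM in Active for Cacng6, 0.0653 CPM in IBA and 0.216 CPM in Active for Cacng8 and 0.0816 CPM in IBA and 0.158 CPM in Active for Cacng1. Trpc6 was at 0.402 CPM in IBA and 0.511 CPM in Active, and Cacng7, the exception, at 0.452 CPM in IBA and 0.426 CPM in Active.

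That direction was shared by most genes read as thinly, 76.1% of which were lower in IBA at 0.1 to under 0.5 CPM. Cacna1h, a T-type channel, had at most 2 reads in any library, fewer than the 3 reads that a count of 0 leaves possible. The RefSeq gene list also gives that symbol to another row of the table, listed under its gene number, which had a mean of 0.0202 CPM.

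Genes that clear, buffer or respond to calcium were examined in 6 lists by function, without the members above. Of 130 names, 122 were tested, and 0 passed over all genes in limma. Of the 122, 29 had an unadjusted p under 0.05, or 23.8% beside 23.5% of all genes tested. Of these, 6 were higher in IBA, or 4.92% beside 12.2% of all genes, and 23 were lower, or 18.9% beside 11.4%. The median log2 differences of the lists were -0.11 for calcium pumps and exchangers (18 tested), 0.01 for mitochondrial uptake (11), -0.10 for calcium-binding proteins (19), 0.02 for calcium-dependent kinases and calcineurin (25), -0.19 for phospholipase C and its Gq inputs (24) and -0.18 for partners of the channels (25). The count of 0 was the same in edgeR, and DESeq2 called 14 of the 122, or 11.5% beside 9.46% of all genes. Of these 14, 2 were higher in IBA, or 1.64% beside 3.78%, and 12 were lower, or 9.84% beside 5.67%.

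The gene of each list with the smallest p is given here. Atp2b4, a pump that expels calcium across the cell membrane, was at 240.0 ± 12.3 CPM in IBA and 189 ± 9.25 CPM in Active (SD, n = 5 each), differing by 0.34 on the log2 scale (adjusted p = 0.0663, limma). Grina, a membrane protein linked to calcium control in the endoplasmic reticulum, was at 216 ± 44.0 CPM in IBA and 340.0 ± 66.3 CPM in Active (SD, n = 5 each), differing by -0.66 on the log2 scale (adjusted p = 0.0670, limma). Every IBA value of Atp2b4 lay above every Active value, as 228 to 255 CPM in IBA and 175 to 198 CPM in Active. Over all genes tested, 3.41% had no overlap with IBA higher and 2.8% none with IBA lower. Nfatc1, a transcription factor switched on by calcineurin, was at 21.9 ± 2.89 CPM in IBA and 31.6 ± 6.33 CPM in Active (SD, n = 5 each), differing by -0.51 on the log2 scale (adjusted p = 0.0840, limma). Its states did not overlap either, with IBA values up to 25.1 CPM and Active values from 26.9 CPM. The pump was higher and the other pair lower in mean in IBA.

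The other lists were led by Letm1, Plch2 and Hpcal1. Letm1, an ion exchanger of the inner mitochondrial membrane, was at 113 ± 23.5 CPM in IBA and 156 ± 24.8 CPM in Active (SD, n = 5 each), differing by -0.48 on the log2 scale (adjusted p = 0.107, limma). Plch2, a phospholipase C, was at 0.366 ± 0.219 CPM in IBA and 1.21 ± 0.625 CPM in Active (SD, n = 5 each), differing by -0.91 on the log2 scale (adjusted p = 0.107, limma). It reached the limit of 0.5 CPM only through Active, and 62.2% of the 1221 genes of 0.5 to under 1 CPM outside the module were lower in IBA. Its highest values, 1.89, 1.65 and 1.18 CPM, were in Active replicates 4, 3 and 5, the libraries with the highest sums of thinly read genes. The part of those libraries in the Plch2 difference was not tested. Hpcal1, a neuronal calcium sensor, was at 34.0 ± 7.67 CPM in IBA and 42.8 ± 7.07 CPM in Active (SD, n = 5 each), differing by -0.34 on the log2 scale (adjusted p = 0.204, limma). Grina passed the adjusted test in limma where IBA replicate 5 was left out, with a log2 difference of -0.76 and an adjusted p of 0.0419, and in DESeq2, with -0.68 and an adjusted p of 0.00542. Of the other genes named here, DESeq2 also called Atp2b4 (adjusted p = 0.00507), Nfatc1 (0.0143), Plch2 (0.0310) and Letm1 (0.0425), but not Hpcal1. Atp2b4 was higher and the rest were lower in IBA.

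Of the 45 members, 0 reached an FDR under 0.05 in the authors' deposited table, beside 12 of 25964 genes (0.0462%). The unadjusted p in the authors' deposited table was under 0.05 for 6 members (13.3%), beside 17.3% of all genes. The lowest FDR among the 45 members in the authors' deposited table was 0.117, for Trpm1, with a log2 fold change of -2.50 after its sign was turned to IBA relative to Active. Orai3 had an FDR of 0.259 and Stim1 one of 0.364 in the authors' deposited table. Trpm3, Trpm4 and Cacna2d4, whose differences lay near 0, had the opposite sign in the authors' deposited table.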

How the data were processed

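Libraries were made with an mRNA kit, per the labels' protocols, from the subfornical organ of 5 IBA and 5 Active animals, and the sample titles gave state and replicate number. They are biological replicates, per the series' design text. Per the submitters' processing notes, the tools were R 4.2.1 with edgeR 3.38.4, STAR 2.7.7a, Trimmomatic 0.39 and featureCounts of Subread 2.0.1. Genome build, annotation and strand setting: not given in the sources used here. Overlapping or antisense genes may share reads.

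The deposited table holds 1 normalised CPM column per library, per the file headers, and this signal summed to a different total in each. Beside it stand the authors' log2 fold change, coded Active minus IBA, average log2 CPM, F statistic (a score), p-value and FDR per gene. In every library 100% of the deposited values were whole multiples of 1 read, within 0.01 of a read.

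The 16672 genes that reached 0.5 CPM on average were tested two-sided with limma 3.58.1 in R 4.3.3, on log2(CPM + 0.5), without covariates and with a trend on intensity, at a Benjamini-Hochberg adjusted p of 0.05. edgeR 4.0.16 and DESeq2 1.42.0 on recovered reads were alternatives, as were other pseudocounts, filters, scalings, weights, marker covariates and the omission of libraries. Every pair of libraries in a state differed by more than sampling noise. Simulated counts for IBA relative to Active, again 16672 genes, gave a recovery of 89.4% at 4-fold, 58.2% at 2-fold and 16.4% at 1.5-fold. Each gene was drawn on its own, so the simulation held no difference between libraries that many genes share, beyond library size. These rates need not hold for the members, whose median SD within a state was 0.32 on the log2 scale, against 0.26 for all genes.

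The members, lists and tests were chosen with earlier results of these data known. Members were given library by library where the unadjusted p was under 0.05 or where the gene had the highest mean CPM of its role group, and in the other lists the gene with the smallest p was named. Trpm6 was also given library by library, chosen after its values were seen. Symbols were used as deposited, and 44 of 45 members matched a RefSeq symbol of the assembly mIctTri1.hap1, used for names only. No sequence was used here. The values of 1 member are not reported here, and it is counted in the totals.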

Additional observations from a re-analysis of the deposited data

Results flagged for a closer look

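Among 90 sets of 5 values, 45 members in each state, 5 held a library far from the other 4 of its state, and chance alone gives about 1 in 20 such sets. Active replicate 4 had 602 CPM of Trpm3, where the other Active libraries had 50.8 to 102 CPM, and that library also held the highest choroid plexus marker score, 2.40. Trpc4 was low in IBA replicate 4, at 3.74 CPM, where the other IBA libraries had 5.83 to 6.07 CPM. Trpc4 was also low in Active replicate 5, at 1.95 CPM, where the other Active libraries had 3.70 to 4.18 CPM. IBA replicate 5 had 1.19 CPM of Trpm6, where the other IBA libraries had 0.0946 to 0.284 CPM. IBA replicate 4 had 0.244 CPM of Cacng3, where the other IBA libraries had 0.798 to 1.01 CPM.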

How the results depend on the processing

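Across 25 alternative settings, the count of members called was 0 in all but DESeq2, where it was 3. The count of all genes called, 62 in limma, was 1577 in DESeq2, 31 in edgeR, 6 with no filter on low values, 3 with the neuron marker score as a covariate and 0 without Active replicates 4 and 5, and it ran from 4 to 238 when single libraries were left out. The count of other calcium-handling genes, 0 in limma, was 14 in DESeq2 and 0 to 1 when single libraries were left out. The sample titles give same-numbered libraries no link beyond the number. The correlations of their deviations were 0.116, 0.108, -0.158, -0.0122 and 0.188, and 2 of 5 IBA libraries correlated best with the Active library of their own number. These values cannot tell whether same-numbered libraries were handled together. The replicate block moved the count of all genes to 232 and that of other calcium-handling genes to 1, Grina, with an adjusted p of 0.0414 in limma, and left that of members at 0. Single genes were followed through the settings for the 16 members that the naming rule gave, not for Trpm6, and the sign turned for 3 of the 16. The log2 difference of Cacna1f was -0.068 without Active replicates 4 and 5, and -0.046 to 0.24 when 1 library was left out. That of Cacna2d1 was -0.019 with equal totals, -0.016 with sample weights, -0.018 without Active replicates 4 and 5, and -0.051 to 0.10 when 1 library was left out. That of Trpm3 was -0.58 in edgeR and in DESeq2, which gave it no adjusted p, and -0.21 to 0.68 when 1 library was left out. The cause was not tested. At this depth values under 0.0882 to 0.132 CPM, or 3 reads, were not told from 0, and Cacna1a came down to 3 reads in 1 library of each state.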
